A study of Ceratopteris richardii with 6 samples.

Results

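The genes described here stood far from mock after 24 h of 2,4-D and had come partway back toward mock by 48 h, in whole sporophyte seedlings of the fern Ceratopteris richardii. They were chosen from the deposited table by their group means of log2(TPM + 1), where TPM is the share of a gene in the transcripts of a library, corrected for gene length and set to the same total in each library. A gene had to have a highest group mean of at least 10 and under 1000 TPM. It also had to differ from mock by at least 1 on the log2 scale at 24 h, to move back by at least 0.5 between 24 h and 48 h, and to remain at least 0.5 from mock at 48 h. In 1 direction the genes were above mock (raised members), and in the other they were below it (lowered members). The rule gave 68 raised and 61 lowered members, 129 in all, of 15731 genes in that range of abundance and 88641 genes listed. Any gene that meets both conditions of 0.5 also meets the condition of 1, so the size of the first step chose no gene by itself. All 3 differences between the groups were used to choose the members, so these differences are given as descriptions and nothing is concluded from them by a test.

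RNA was sequenced from wild type RNWT1 seedlings, with 2 libraries each for a mock group, for 24 h and for 48 h on medium with 2 µM 2,4-D, after 30 days of culture from spores. The mock columns are named 0 days in the table, and no sample used here is labelled as untreated at 24 h or 48 h. The labels give no harvest time for mock. If it was 0 days, time on new medium, plant age and 2,4-D cannot be told apart. It is not stated whether replicate libraries come from different cultures. The p-values therefore reflect the spread among the libraries at hand, which may be technical. Whole seedlings were used, in which fewer cells of a type and less RNA per cell cannot be told apart.

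Auxin is the plant hormone that directs cell expansion, root formation and the patterning of organs. In Arabidopsis it is bound by receptors that lead to the breakdown of repressor proteins, which frees transcription factors to act on their target genes. Some of those targets encode the same repressors, or enzymes that join auxin to amino acids, so parts of the response are known to limit themselves. The synthetic auxin 2,4-D is broken down more slowly in many plants than the natural hormone indole-3-acetic acid. Ceratopteris is a homosporous fern used to study plants that bear no seeds, and its sporophyte is the generation with roots and fronds.

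No source used here says which known genes the members are. The table lists IDs from a Trinity assembly, that is, transcripts put together from the reads without a genome, and 0 of them matched the 36816 genes of the RefSeq table of assembly C.richardii_v2. For this reason no function, position or sequence is given, no list of auxin genes could be counted, and the labelled tissue could not be checked against marker genes. Only 2 IDs are printed in each direction, and other members are described by their values and were picked after these had been seen. Read depth is unknown, because TPM keeps none, so no counting intervals can be given.

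The raised members had a median log2 difference of 1.69 between 24 h and mock, with a range of 1.03 to 5.71. At 48 h the median difference from mock was 0.92, with a range of 0.50 to 4.87, and the difference 48 h minus 24 h had a median of -0.73. On the TPM scale, the median ratio of 24 h to mock was 3.57 and that of 48 h to mock was 1.93. The members spanned a wide range of abundance: their 24 h means ran from 10.1 to 596 TPM with a median of 28.8 TPM, and 15 of them were at 100 TPM or more. Most first steps were moderate, with 44 of the 68 between 2-fold and 4-fold, 13 between 4-fold and 8-fold, 8 between 8-fold and 16-fold, and 3 of at least 16-fold on the log2(TPM + 1) scale. Summed over the 68 members, their share of all TPM was 0.164% and 0.145% in mock, then 0.555% and 0.583% at 24 h, then 0.324% and 0.349% at 48 h.

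**Figure D1:**
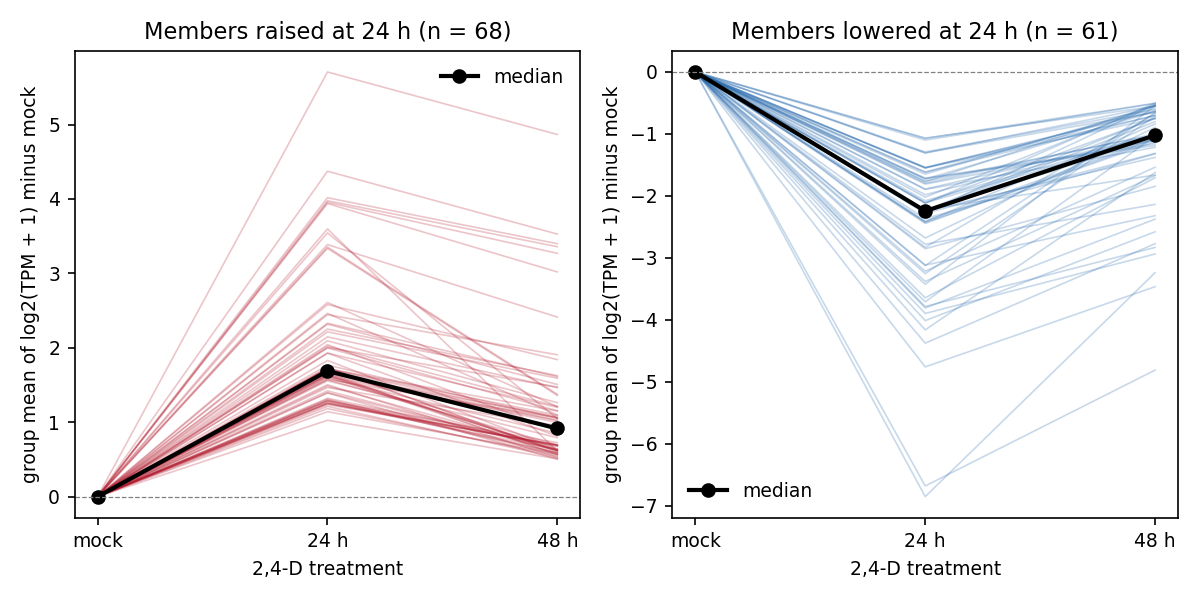
Group means of log2(TPM + 1) minus the mock mean (vertical axis) in mock, at 24 h and at 48 h of 2,4-D for each of the 68 raised members (left) and 61 lowered members (right), with the median of each set in black. The medians run from 0 through 1.69 to 0.92 on the left and from 0 through -2.24 to -1.02 on the right, a shape that the choice of members fixes.

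SHA_TRINITY_DN55825_c0_g1 was the most abundant raised member. It had 267 and 273 TPM in mock, 600.0 and 592 TPM at 24 h, and 419 and 385 TPM at 48 h. The libraries of a group lay close together. The groups did not overlap, which was required of every member named by ID. Its mean was 270 ± 3.8 TPM in mock, 596 ± 5.6 TPM at 24 h and 402 ± 24 TPM at 48 h (SD, n = 2 libraries), and 49.8% of its log2 change at 24 h had been lost by 48 h. The fitted log2 difference was 1.14 ± 0.06 (SE) for 24 h against mock and -0.57 ± 0.06 for 48 h against 24 h.

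RT_TRINITY_DN4372_c0_g2 was, among raised members with a first step of at least 2 on the log2 scale, the one whose return was nearest to 50%. It had 5.33 and 2.24 TPM in mock, 23.3 and 30.4 TPM at 24 h, and 9.39 and 9.54 TPM at 48 h. The mock libraries stood apart from each other, but every 24 h library was above every 48 h library and these above both mock libraries. The log2 difference was 2.61 ± 0.29 (SE) for 24 h against mock and -1.40 ± 0.29 for 48 h against 24 h, a return of 53.7%. The rule used all 3 contrasts, so no p-value of a named member is an independent result. Of the named members, only this one had comparisons that failed the limma test when a library was left out. For 48 h against mock the adjusted p was 0.014 with all libraries, and 0.061 and 0.067 without 48 h replicate 1 and 2. For 48 h against 24 h it was 0.0078, and 0.052 without 24 h replicate 2.

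Other raised members show how far the courses varied. The raised member second in abundance had 205 and 114 TPM in mock, 558 and 613 TPM at 24 h, and 328 and 380 TPM at 48 h. Its mock libraries differed more than those of the first, with replicate 1 the higher. The member with the largest first step, 5.71 on the log2 scale, stayed at 138 and 152 TPM at 48 h, against 269 and 252 TPM at 24 h. Measured on the log2 scale it had returned least of all raised members, by 14.7%, although 45.0% of its gain in TPM was gone. The member that returned furthest had 3 and 2.69 TPM in mock, 45.5 TPM in both 24 h libraries, and 3.53 and 6.60 TPM at 48 h. It had lost 83.0% of its change on the log2 scale and 94.8% of its gain in TPM. Its 48 h libraries stood apart from each other, and the lower of them was close to mock.

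In 66 of the 68 raised members every 24 h library was above every 48 h library and every 48 h library above both mock libraries, an order found in 4.40% of the 32225 genes tested. The 2 exceptions had libraries of a group far apart. One was at 0 and 21.2 TPM in mock, 13 and 45.9 TPM at 24 h, and 14.2 and 19.6 TPM at 48 h. In the other, the 24 h libraries were at 16.9 and 8.55 TPM and the 48 h libraries at 11.0 and 5.51 TPM. All 129 members passed the filter on low values (at least 1 TPM in at least 2 libraries) and were in the limma fit across the 32225 genes. By limma with Benjamini-Hochberg adjustment over all genes, 67 of the 68 were called higher at 24 h than in mock (11.0% of all genes were), 59 higher at 48 h than in mock (15.9%), and 58 lower at 48 h than at 24 h (28.5%). All 3 calls together held for 55 raised members, against 0.583% of all genes. The rule selected for these calls, and nothing is read from the counts. The balance of directions over all genes depends on the scaling: with the libraries rescaled by a trimmed mean of their log ratios, 2150 genes were called above mock and 2524 below it at 24 h, against 3531 and 1633 as deposited. For 48 h against mock the numbers were 6297 and 5726, against 5109 and 7256 as deposited. For 48 h against 24 h they were 5837 and 5012, against 3569 and 9187.

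The lowered members had the larger first step. Their median log2 difference between 24 h and mock was -2.24, with a range of -6.85 to -1.07, and at 48 h the median was -1.02, with a range of -4.81 to -0.50. The difference 48 h minus 24 h had a median of 1.06. The median ratio of mock to 24 h was 5.63 in TPM, and that of mock to 48 h was 2.13. Their mock means ran from 10.3 to 441 TPM with a median of 37.9 TPM, while the median was 6.32 TPM at 24 h and 15.6 TPM at 48 h. First steps were spread more evenly over the sizes than among the raised members: 23 of the 61 were between 2-fold and 4-fold, 21 between 4-fold and 8-fold, 11 between 8-fold and 16-fold, and 6 of at least 16-fold. Their summed share of all TPM was 0.359% and 0.477% in mock, then 0.0745% and 0.0710% at 24 h, then 0.179% and 0.166% at 48 h. The mock libraries differed in that sum, with replicate 2 the higher.

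SHA_TRINITY_DN3446_c0_g1 was the most abundant lowered member. It had 423 and 459 TPM in mock, 104 and 97.2 TPM at 24 h, and 289 and 334 TPM at 48 h. The groups did not overlap, as was required of a named member, and the 24 h libraries were the lowest by a wide margin. The log2 difference was -2.12 ± 0.08 (SE) for 24 h against mock and 1.62 ± 0.08 for 48 h against 24 h, a return of 76.3%. With a log2 difference of -0.50 from mock at 48 h, it was also the lowered member closest to the limit for remaining below mock.

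RO_TRINITY_DN135767_c0_g1 was, among lowered members with a first step of at least 2 on the log2 scale, the one nearest to a return of 50%. It had 10.2 and 11.5 TPM in mock, 1.84 and 1.66 TPM at 24 h, and 4.23 and 5.16 TPM at 48 h. The 3 groups did not overlap, as was required of a named member. The log2 difference was -2.11 ± 0.14 (SE) for 24 h against mock and 1.05 ± 0.14 for 48 h against 24 h, a return of 49.6% on that scale and of 32.3% of the TPM lost.

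**Figure D2:**
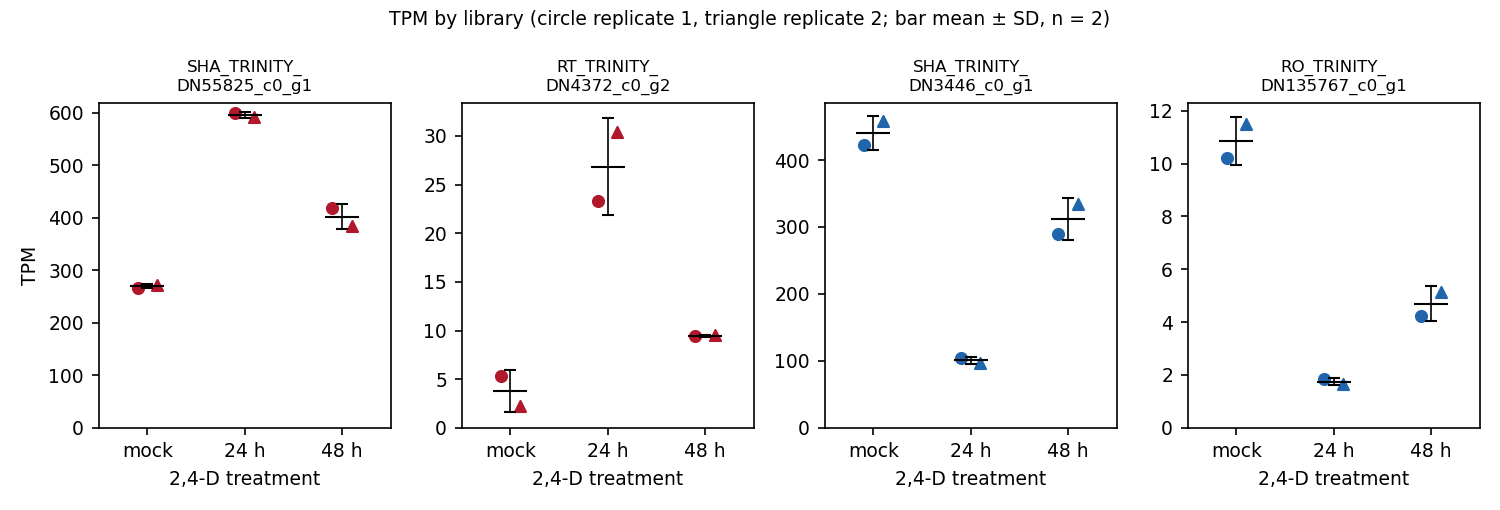
TPM (vertical axes, from 0) in each library of the mock, 24 h and 48 h groups for the 4 members named by ID, 2 raised (red) and 2 lowered (blue); circles are replicate 1, triangles replicate 2, and bars show mean ± SD (n = 2 libraries). In each of the 4 members the 48 h libraries lie between the mock and the 24 h libraries, with no overlap between groups, which was a condition for naming a member.

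The lowered members also differed widely in how far they came back. The one that returned furthest, by 84.2% on the log2 scale, had 12.4 and 16.5 TPM in mock, 0.60 and 0.27 TPM at 24 h, and 10.1 and 8.98 TPM at 48 h. It was under 1 TPM at 24 h and came close to the lower mock library at 48 h. The one that returned least, by 23.1%, had 117 and 180.3 TPM in mock, 19.6 and 21.1 TPM at 24 h, and 28.9 and 36.0 TPM at 48 h. It shared its assembly component with another lowered member, so reads could be divided between them. That second gene had 15.7 and 25.5 TPM in mock, 0.90 and 1.15 TPM at 24 h, and 6.43 and 4.86 TPM at 48 h, a return of 50.5% on the log2 scale. In both, mock replicate 2 was the higher mock library.

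The libraries of the 3 groups did not overlap in any of the 61 lowered members, with 24 h lowest and mock highest, an order found in 1.49% of all genes tested. By limma, 61 of the 61 were called lower at 24 h than in mock (5.07% of all genes were), 54 lower at 48 h than in mock (22.5%), and 59 higher at 48 h than at 24 h (11.1%). All 3 calls held for 52 lowered members, against 0.326% of all genes. As for the raised members, the rule used these contrasts and nothing is read from the counts.

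The part of the first change that was gone by 48 h had a median of 46.4% in the raised members, with quartiles of 35.0% and 56.9%, on the log2 scale. In the lowered members it was 52.7%, with quartiles of 39.0% and 63.9%. Fewer raised members had passed the midpoint (28 of 68) than lowered ones (37 of 61), but the order of the directions depends on the scale. In TPM, the median return was 59.3% of the gain in raised members and 33.3% of the loss in lowered members, because the same log2 step is larger in TPM at a high level than at a low one. The rule also bounds the value: a gene with a small first step can only show a return near 50%, while a large first step allows any value short of the ends. Among the raised members, the 44 with steps under 4-fold had a median return of 49.9%, and the 3 with steps of at least 16-fold returned by 14.7% to 19.3%. Among the lowered members the medians were 52.9% for the 23 with steps under 4-fold, 55.2% for the 21 from 4-fold to 8-fold, 52.2% for the 11 from 8-fold to 16-fold and 36.2% for the 6 beyond.

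**Figure D3:**
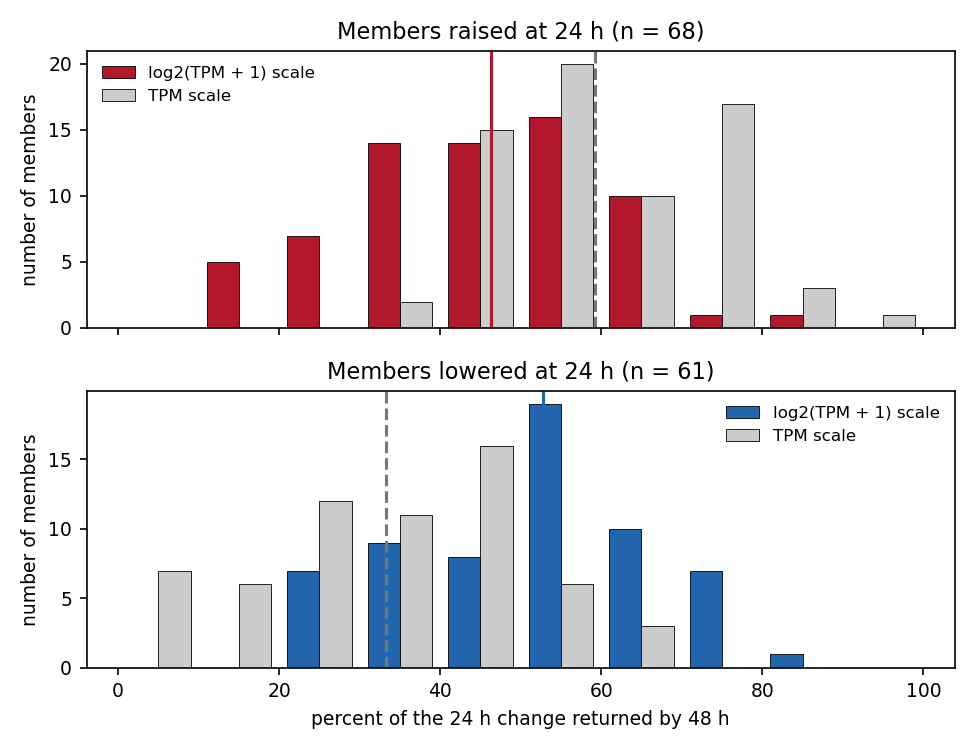
Number of members (vertical axes) by the percent of their change at 24 h that was gone at 48 h (horizontal axis, bins of 10 percentage points), on the log2(TPM + 1) scale (coloured bars) and on the TPM scale (grey bars); the lines mark the medians. The median is 46.4% on the log2 scale and 59.3% in TPM for raised members (top), and 52.7% and 33.3% for lowered members (bottom).

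The members were then placed among all genes of the same abundance that stood at least 1 from mock at 24 h on the log2 scale. Of 390 such genes above mock, 68 (17.4%) are the raised members, 85 moved at least 0.5 further from mock by 48 h, 162 stayed within 0.5 of their 24 h value, 58 came back to within 0.5 of mock and 17 crossed to at least 0.5 below it. Of 287 genes below mock, 61 (21.3%) are the lowered members, 51 moved further, 81 stayed, 52 came back and 42 crossed to above mock. Partway return was the most frequent of the 3 returning courses in both directions, with 47.6% of 143 returning genes above mock and 39.4% of 155 below, in the deposited TPM. After the trimmed-mean rescaling, 310 genes were at least 1 above mock and 351 at least 1 below it at 24 h, so more genes were then below mock than above. Above mock, 43 of them were partway back, 35 back and 9 across. Below mock the order turned, with 68 partway back, 77 back and 54 across. The members had larger first steps than the neighbouring courses, as a description of the same values: the median was 1.69 in the raised members, 1.31 in the genes that stayed up and 1.21 in those that came back. Below mock it was -2.24 in the lowered members, -1.42 in the genes that stayed down and -1.37 in those that came back. At a first step of exactly 1 a single value at 48 h meets the rule, and the range that meets it widens with the step, so the rule itself favours larger steps among the members than among genes that stayed or came back.

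**Figure D4:**
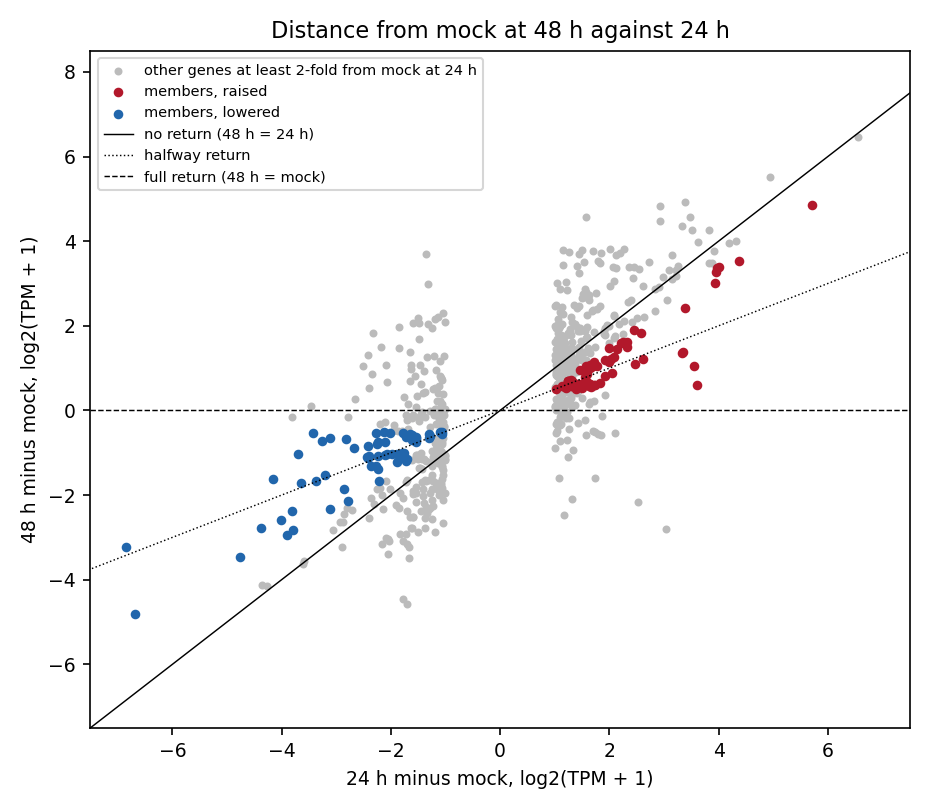
Log2 difference from mock at 48 h (vertical axis) against that at 24 h (horizontal axis) for the 390 genes at least 1 above mock and the 287 at least 1 below mock at 24 h, with 10 to under 1000 TPM. The 68 raised (red) and 61 lowered (blue) members lie between the solid line of no return and the dashed line of full return, on both sides of the dotted line that marks 50%, and grey points are the other genes.

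The rule was also applied to the libraries of 1 replicate number alone, and the genes so chosen were read in the 3 libraries with the other number, which had no part in the choice. Of 64 genes chosen as raised in the replicate 1 libraries, 63 (98.4%) had the order 24 h above 48 h above mock in the replicate 2 libraries, against 14.0% of all genes in the abundance range. Their median log2 difference, 48 h minus 24 h, was -0.71 where they were chosen and -0.62 in the other libraries. Of 78 genes chosen as raised in the replicate 2 libraries, 72 (92.3%) had the same order in the replicate 1 libraries, against 15.7% of all genes, and the median was -0.71 where chosen and -0.77 in the others.

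For genes chosen as lowered the order 24 h below 48 h below mock was again found in most. It held in 46 of 50 genes (92.0%) chosen in replicate 1 and read in replicate 2, against 6.45% of all genes, with median differences between the times of 0.96 where chosen and 0.73 in the other libraries. It held in 68 of 77 genes (88.3%) chosen in replicate 2 and read in replicate 1, against 5.62% of all genes, with medians of 0.99 and 1.16. The full sizes required by the rule were met less often in the other libraries: in 39 of 64 and 38 of 78 raised genes, and in 31 of 50 and 36 of 77 lowered genes. Of these chosen genes, 47 and 55 were among the 68 raised members, and 37 and 54 among the 61 lowered members. Most genes in the abundance range stood less than 1 from mock at 24 h, so their shares are no reference for genes with a comparable first step. The mock, 24 h and 48 h libraries of a number are not known to belong together, and genes are not independent replicates, so these shares are given without a test.

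The 2 mock libraries differed in the lowered members. Replicate 2 was higher than replicate 1 in 56 of the 61 (91.8%), by a median of 0.38 on the log2 scale, while it was higher in 52.1% of all genes in the abundance range, by a median of 0.01. The 226 other genes at least 1 below mock at 24 h showed the same tendency, with replicate 2 higher in 82.7% of them by a median of 0.23. At 24 h the lowered members were about evenly divided, with replicate 2 higher in 29 of 61 (47.5%), against 41.9% of all genes. At 48 h replicate 1 was higher in 44 of the 61, with a median of -0.15 for replicate 2 minus replicate 1, against -0.03 in all genes. Replicate 2 was then higher in 27.9% of the lowered members, against 38.4% of all genes. In the 226 other genes below mock at 24 h it was higher in 38.1%, near the share of all genes, but their courses differed. Replicate 2 was higher in 25% of those that came back to within 0.5 of mock and in 26.2% of those that crossed. The low share at 48 h was therefore not particular to the members. Among genes that stayed it was 41.98%, and among those that moved further 54.9%. The raised members leaned the other way at 48 h: replicate 2 was higher in 51 of 68 (75%), against 38.4% of all genes, by a median of 0.11. The 322 other genes at least 1 above mock at 24 h leaned the same way, with replicate 2 higher in 62.1%. In mock, raised members were higher in replicate 1 in 40 of 68. Replicate 2 was higher in 41.2% of them and in 38.2% of the 322 other genes, against 52.1% of all genes. The rule uses group means and not the difference between the libraries of a group, although genes with a large change can also have a large spread.

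**Figure D5:**
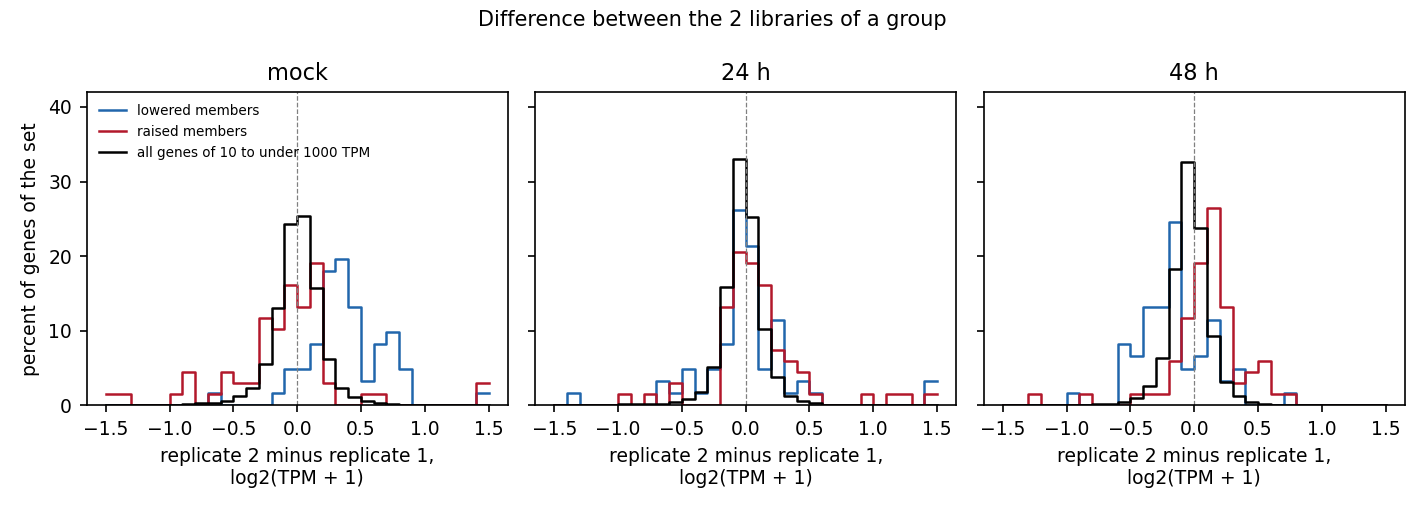
Difference of replicate 2 minus replicate 1 in log2(TPM + 1) (horizontal axes, bins of 0.1, values beyond 1.5 in the end bins) in mock, at 24 h and at 48 h, as the percent of genes of each set (vertical axis): lowered members (blue, n = 61), raised members (red, n = 68) and all 15731 genes of 10 to under 1000 TPM (black). In mock the lowered members lie to the right, with a median of 0.38 against 0.01 for all genes.

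What lay behind the difference between the mock libraries was not tested, and its size bears on the lowered members. With mock replicate 1 left out, the rule gave 72 lowered genes, 58 of them among the 61 members. With mock replicate 2 left out it gave 41, of which 39 were members. The median log2 difference of the 61 members between 24 h and mock was -2.41 without mock replicate 1 and -2.03 without mock replicate 2. The choice of members fixes that sign, since their groups did not overlap. For the raised members, the numbers were 73 and 67 genes, with 61 and 64 of the 68 members among them.

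The number of raised members depended on the scaling between libraries, more than that of lowered members. The median log2 difference of all tested genes was 0.10 for 24 h against mock, -0.08 for 48 h against mock and -0.18 for 48 h against 24 h in the deposited TPM. The trimmed-mean rescaling brought these medians to between -0.0041 and -0.00088. The rule then gave 43 raised genes, of which 37 were among the 68 members. Of the other raised members, 29 were then among the genes that stayed within 0.5 of its 24 h value and 2 no longer reached 1 at 24 h or left the abundance range. The movement back toward mock was smaller but had the same sign: the median of the 68 members for 48 h against 24 h was -0.52 after rescaling and -0.73 before. SHA_TRINITY_DN55825_c0_g1 was one of those that no longer met the rule, with a log2 difference between the times of -0.35 after rescaling.

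The lowered members changed the other way. After rescaling, the rule gave 68 lowered genes, 50 of them members, and the 11 other members had come back to within 0.5 of mock. SHA_TRINITY_DN3446_c0_g1 was one of these 11, with a log2 difference from mock at 48 h of -0.40. That difference was -0.49 after quantile normalization, -0.44 without mock replicate 2 and -0.40 without 48 h replicate 1, each short of the limit. The median of the 61 members for 48 h against 24 h was 1.25 after rescaling and 1.06 before. Quantile normalization gave 54 raised genes, 48 of them members, and 70 lowered genes, 51 of them members. Which scaling is right cannot be told from TPM alone.

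Beyond their levels, the table gives only the IDs of the members. They came from 68 components of the assembly in the raised and 59 in the lowered direction, where a component joins the IDs that differ in their final g number alone, whose genes can share reads. In 11 raised and 8 lowered members the component held another listed gene that was not a member of the same direction. Of these other genes, 13 reached a group mean of 1 TPM, 9 beside raised and 4 beside lowered members. All 13 stayed within 1 of mock at 24 h on the log2 scale. Pairs of members were left out of these counts: 2 components held 2 lowered members each. In 1 component a raised member, with group means of 3.71 TPM in mock, 22.2 TPM at 24 h and 13.4 TPM at 48 h, stood beside a more abundant gene that was lowest at 24 h, with 188, 119 and 244 TPM. In another, a gene beside a lowered member was lowest at 24 h like that member, with 78.85, 47.6 and 89.1 TPM. When TPM were summed over each component, 64 of the 68 raised and 58 of the 61 lowered members belonged to a component that met the rule as well. Where a component held no other listed gene, the sum is the member itself and meets the rule by construction. Only the 11 raised and 8 lowered members above and the paired lowered members could fail, and 4 raised and 3 lowered members did.

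The IDs carry 5 prefixes, which the sources used here do not explain. RO was the most frequent prefix among the members, with 24 of 68 raised (35.3%) and 19 of 61 lowered (31.1%), against 20.01% of all genes in the abundance range. LA was rare among the raised members, with 6 of 68 (8.82%), and was at 24.6% of the lowered members and 24.6% of all genes. Abundance also differed: 22.1% of the raised and 16.4% of the lowered members were at 100 TPM or more in their highest group, against 12.5% of all genes in the range. These shares were not tested. They were not set against the other genes that moved at 24 h, so they cannot be called particular to the members.

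The limits of the rule cut through a continuous range of values. The raised member nearest to the limit of the return moved back by 0.51 on the log2 scale, and the nearest gene outside by 0.4998. The raised member nearest to the limit of the remaining distance stood 0.503 above mock at 48 h, and the nearest gene outside 0.497. Among the lowered genes the values were 0.513 inside and 0.493 outside for the return. For the remaining distance they were -0.501 inside and -0.489 outside. The least abundant raised member had 10.1 TPM in its highest group and the nearest gene outside 9.57 TPM, while the lowered ones had 10.3 and 9.97 TPM. Below the abundance limit, 54 genes showed the raised and 21 the lowered course, and above the upper limit there was 1 gene with the lowered course, at 1360.1 TPM in mock, 22.5 TPM at 24 h and 35.4 TPM at 48 h.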

How the data were processed

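RNA-seq was deposited by the authors as 1 table of TPM per assembled gene for 6 libraries, rounded to hundredths. Per the submitters' processing notes, the tools were RSEM 1.3.2, STAR 2.7.2b, Bowtie2 2.3.4.3 and Trim Galore 0.5.0; the notes name the build TAIR10 but give neither roles nor order. Treatment times and replicate numbers in the titles identified the 1d and 2d columns, and the 0d columns were taken as mock, for which the labels give no treatment time. No column was left over.

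Values were transformed as log2(TPM + 1), which understates changes of low genes. The 32225 genes that reached 1 TPM in 2 or more libraries were fitted with limma 3.58.1 in R 4.3.3, with the group as the only factor, all 6 libraries in 1 fit, a mean-variance trend, two-sided tests and Benjamini-Hochberg adjustment within each comparison (threshold 0.05). The fit had 3 residual degrees of freedom. The limma fit, but not the rule that chose the members, was tested on simulated data. The trimmed-mean rescaling left out 30% of log ratios and 5% of abundances at each end, without weights.

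Members, lists and tests were chosen with earlier results of these data known. Named members were, in each direction and among those whose groups did not overlap, the one with the highest group mean TPM and, of the others with a first step of at least 2 on the log2 scale, the one whose return was nearest to 50%. Alternatives covered pseudocounts, limits of the rule, filters, scalings, a replicate block, left-out libraries and summed components.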

Additional observations from a re-analysis of the deposited data

Results flagged for a closer look

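All 4 named members had effects against mock that differed between 24 h and 48 h by limma (48 h minus 24 h, adjusted threshold of 0.05). The log2 difference was -0.57 for SHA_TRINITY_DN55825_c0_g1, -1.40 for RT_TRINITY_DN4372_c0_g2, 1.62 for SHA_TRINITY_DN3446_c0_g1 and 1.05 for RO_TRINITY_DN135767_c0_g1. The rule required a difference of at least 0.5 between the times, so these differences are no independent result.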

How the results depend on the processing

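Of 156 fits of the named members under the alternatives, 153 stayed on the same side of the threshold and 3 did not pass; their direction was fixed by the choice of members. The number of members moved with the rule's own limits: with a return and remaining distance of at least 0.25 there were 134 raised and 100 lowered genes, and with 0.75 there were 16 and 32. Raised genes numbered 39 with a pseudocount of 5, 44 with a highest group mean of at least 20 TPM and 43 after trimmed-mean rescaling. With each library left out in turn they numbered 67 to 83, and lowered genes 41 to 72. The median return of the raised members was 33.9% after trimmed-mean rescaling, 39.9% after quantile normalization and 42.8% to 50.9% with a library left out; in TPM it was 59.3%, and that of the lowered members 33.3%. With no filter on low values limma called 3093 genes for 24 h against mock, against 5164 with it, and 34 lowered members in all 3 comparisons, against 52. With a library left out, limma called 2421 to 4163 genes for 24 h against mock and 8224 to 12897 for 48 h against 24 h, and 32 to 57 lowered members in all 3; the count of 32 was without 48 h replicate 2. A fit with a replicate block called 4814, 12137 and 12458 genes in the 3 comparisons, and 58 raised and 51 lowered members in all 3. Replicate differences correlated across genes with r = 0.052 between 24 h and mock, -0.0085 between 48 h and mock and 0.030 between 48 h and 24 h, none over 0.1, and the labels give no sign that libraries with the same number were made together. The cause of these differences was not tested. Read depth is unknown, so what it limits cannot be stated.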
